A study of Homo sapiens with 24 samples.

Results

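The AP-1 genes and a set of classic immediate early genes were followed across a knockdown series in kidney cells: the Fos family members FOS, FOSB, FOSL1 and FOSL2, the Jun family members JUN, JUNB and JUND, and EGR1, IER2 and DUSP1. They were chosen by symbol and are 10 of the 60675 genes in the count tables. The series holds 24 RNA-seq libraries, 3 replicates in each of 8 groups, and addressed what loss of the histone demethylase KDM5C and of the zinc finger transcription factor YY1, alone and combined, does to transcription. ACHN is a human renal cancer line, and HK-2 is a human line of kidney proximal tubule epithelium. In each line, shNC carried a control hairpin, shKDM5C a hairpin against KDM5C, shYY1 a hairpin against YY1, and Dsh hairpins against both. All groups, the controls included, carried a lentiviral hairpin vector and a puromycin selection. Dsh cells were YY1-depleted cells infected again with a KDM5C hairpin that also carried green fluorescent protein, so a further infection and a further selection separate Dsh from the other groups and cannot be told apart from the double knockdown itself. Which hairpin was used in each sequenced group is not given in the sources used here. The methods say in general that quantitative experiments were done independently several times, but not whether the replicates of these libraries were separate cultures, so p-values measure the spread between these samples, which may be technical.

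AP-1 is a dimer of basic leucine zipper proteins. Jun proteins pair with each other or with Fos proteins. Within these families Fos proteins need a Jun partner, and some other leucine zipper proteins can pair with Fos or Jun. Dimers of Jun with Jun or Fos bind the TRE and CRE motifs of promoters and enhancers. Growth factors and stress switch on FOS, JUNB, EGR1 and IER2 within minutes, through the ERK, JNK and p38 kinases, through ternary complex factors and SRF at CArG boxes, and through CREB at CRE motifs. DUSP1, a phosphatase induced by the same signals, removes the activating phosphates from those kinases. FOSL1 lacks the strong activation domain of FOS and is typically kept on by sustained ERK signalling.

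The labels were checked against the targeted genes, in CPM (a gene's count per library total, scaled with edgeR's TMM factors). KDM5C lay between 70.2 and 71.2 CPM in ACHN shNC, between 42.1 and 44.6 CPM in shKDM5C and between 40.0 and 41.3 CPM in Dsh. In HK-2 it lay between 188.2 and 194.2 CPM in shNC, between 34.1 and 67.6 CPM in shKDM5C and between 65.6 and 71.3 CPM in Dsh. YY1 lay between 135.3 and 143.1 CPM in ACHN shNC, between 73.0 and 80.1 CPM in shYY1 and between 90.4 and 104.5 CPM in Dsh. In HK-2 YY1 lay between 200.3 and 212.1 CPM in shNC, between 61.8 and 67.1 CPM in shYY1 and between 72.2 and 75.3 CPM in Dsh. The targeted gene was thus lower in every targeted library than in every shNC library of its line. YY1 was higher in Dsh than in shYY1 in both lines (log2 fold change 0.35 in ACHN, adjusted p = 5.36e-05, and 0.22 in HK-2, adjusted p = 0.00645). KDM5C was also higher in shYY1 than in shNC, by 0.34 in ACHN (adjusted p = 1.14e-08) and 0.35 in HK-2 (adjusted p = 1.54e-05).

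Library totals ranged from 15926561 to 24272298 counts. The first replicate of HK-2 shKDM5C stood apart from its group: a chi-square of its counts against those of the other replicates was 139 and 131 per degree of freedom, against 3.21 between those replicates and 1.96 to 7.36 between all other replicate pairs. Results that use HK-2 shKDM5C are therefore given with and without this library. Of the 12 kidney epithelial markers, 8 or 9 reached 1 CPM in every group, among them the lineage factor PAX8, whereas LRP2, CUBN and AQP1, which define the proximal tubule, stayed under 1 CPM in every group of both lines. Of 6 immune markers, CD14 alone reached 1 CPM, and only in HK-2, with PTPRC at or under 0.124 CPM in each group. Of 6 endothelial markers, KDR was at 0 in every group, and only PECAM1 reached 1 CPM, in HK-2 Dsh. Of 7 fibroblast markers, COL1A2 and COL3A1 stayed at or under 0.119 CPM in every group. Their summed level ran from 586.4 to 636.6 CPM in ACHN shNC, 75.1 to 79.3 CPM in shKDM5C, 190.2 to 197.8 CPM in shYY1 and 135.5 to 152.4 CPM in Dsh, with COL1A1 at a mean of 584 CPM in shNC and 49.7 CPM in shKDM5C. In HK-2 the sum ran from 41.9 to 43.7 CPM in shNC and from 93.1 to 103 CPM in Dsh, with LUM at 10.5 and 61.1 CPM and DCN at 0.145 and 7.24 CPM, while COL1A1 was at 30.8 and 28.4 CPM and PDGFRB at 1.18 and 0.759 CPM. The part of these marker shifts in the results below was not tested. In bulk RNA, fewer cells of a type and less RNA per cell cannot be told apart.

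The promoters of 9 of the 10 genes could be matched in RefSeq (GRCh38.p14), as windows from 250 bases before to 50 bases after the start site. They are shown for EGR1, IER2 and JUND, because EGR1 and IER2 were the genes whose windows held the YY1 motif GCCATNTT, and because JUND was the gene with the largest rise in ACHN Dsh among the Jun genes. The bases before the start site are printed 5′ to 3′ on the strand of the gene, for EGR1 at chr5:138465229-138465478 (plus strand), for IER2 at chr19:13150161-13150410 (plus strand) and for JUND at chr19:18281623-18281872 (minus strand). Capitals mark the motifs found.
EGR1: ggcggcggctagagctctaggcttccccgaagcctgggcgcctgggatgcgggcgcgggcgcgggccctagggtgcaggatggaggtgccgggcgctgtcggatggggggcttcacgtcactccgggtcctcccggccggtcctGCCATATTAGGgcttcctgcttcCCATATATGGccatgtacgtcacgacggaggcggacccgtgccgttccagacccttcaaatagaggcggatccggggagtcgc
IER2: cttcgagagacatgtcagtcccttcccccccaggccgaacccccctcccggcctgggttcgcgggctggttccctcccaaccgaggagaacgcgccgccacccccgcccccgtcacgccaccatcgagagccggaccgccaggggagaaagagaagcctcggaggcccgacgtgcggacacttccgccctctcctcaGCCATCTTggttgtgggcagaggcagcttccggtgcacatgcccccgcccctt
JUND: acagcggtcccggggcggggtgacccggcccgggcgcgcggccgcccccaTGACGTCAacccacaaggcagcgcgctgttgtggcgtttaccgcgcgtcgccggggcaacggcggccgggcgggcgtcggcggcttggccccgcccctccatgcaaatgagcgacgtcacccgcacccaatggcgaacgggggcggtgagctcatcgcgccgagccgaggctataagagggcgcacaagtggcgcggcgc

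Motifs were searched on both strands of the 300-base windows, as GCCATNTT for YY1, TGAGTCA for the TRE, TGACGTCA for the CRE, TATAAA for the TATA box, and the CArG box. In EGR1 the capitals hold CArG boxes that begin at positions -105 and -83 from the start site and a YY1 motif that begins at -106 and overlaps the first of them. In IER2 they mark a YY1 motif at -53, and in JUND a CRE at -200. The YY1 motif was present in 6.58% of 35116 promoters, the CArG box in 1.29%, the CRE in 1.85%, the TRE in 4.95% and the TATA box in 11.5%. Among the other members, DUSP1 held the CRE, FOSL2 the TRE, and FOS, FOSB, JUNB and DUSP1 the TATA box. A match to these letters is a description of the window and not evidence of binding.

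Per length of transcript, FOS and FOSB were the least abundant of these genes in both control groups. In ACHN shNC the level per kilobase of transcript was 70.97 ± 2.87 CPM per kb (SD, n = 3) for DUSP1, 57.0 ± 2.23 for JUND, 56.8 ± 0.617 for FOSL2 and 51.9 ± 2.62 for FOSL1, against 0.369 ± 0.0353 for FOS and 0.703 ± 0.0824 for FOSB. In HK-2 shNC it was 77.9 ± 9.95 CPM per kb for JUND, 61.5 ± 3.79 for JUNB and 52.7 ± 2.42 for FOSL2, against 1.01 ± 0.384 for FOS and 0.763 ± 0.0462 for FOSB. FOS therefore rested on few reads, 20 to 25 counts in each ACHN shNC library and 47 to 85 in each HK-2 shNC library.

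The highest group differed from gene to gene. HK-2 Dsh held the highest mean level of FOS, FOSB, JUN, JUNB and IER2, and ACHN Dsh the highest of JUND and DUSP1. FOSL1 was highest in ACHN shKDM5C, FOSL2 in ACHN shNC and EGR1 in HK-2 shNC. For FOSB, JUN, JUNB, JUND, FOSL1, EGR1, IER2 and DUSP1 the libraries of the highest group did not overlap those of the next group, which also held for 36.6% of all 19082 genes compared. For DUSP1 the gap was narrow, 149.3 CPM in the lowest ACHN Dsh library against 149.2 CPM in the highest ACHN shYY1 library. For FOS and FOSL2 every pair of neighbours in the order overlapped, so no order of their groups is drawn beyond the tests below. Without the first HK-2 shKDM5C replicate, HK-2 shKDM5C was the highest group for FOSL2, and the highest group of the other members was the same. FOS and FOSL2 then showed no overlap with the next group either, but the share of all genes was not computed for this setting. For FOS, HK-2 Dsh still overlapped HK-2 shNC, whose replicate 2 was at 4.69 CPM against 4.11 CPM in the lowest Dsh library. For FOSL2 the gap was narrow, 412.2 CPM in the lower HK-2 shKDM5C library against 411.4 CPM in the highest ACHN shNC library. HK-2 Dsh replicate 3 stood at 412.7 CPM.

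**Figure D1:**
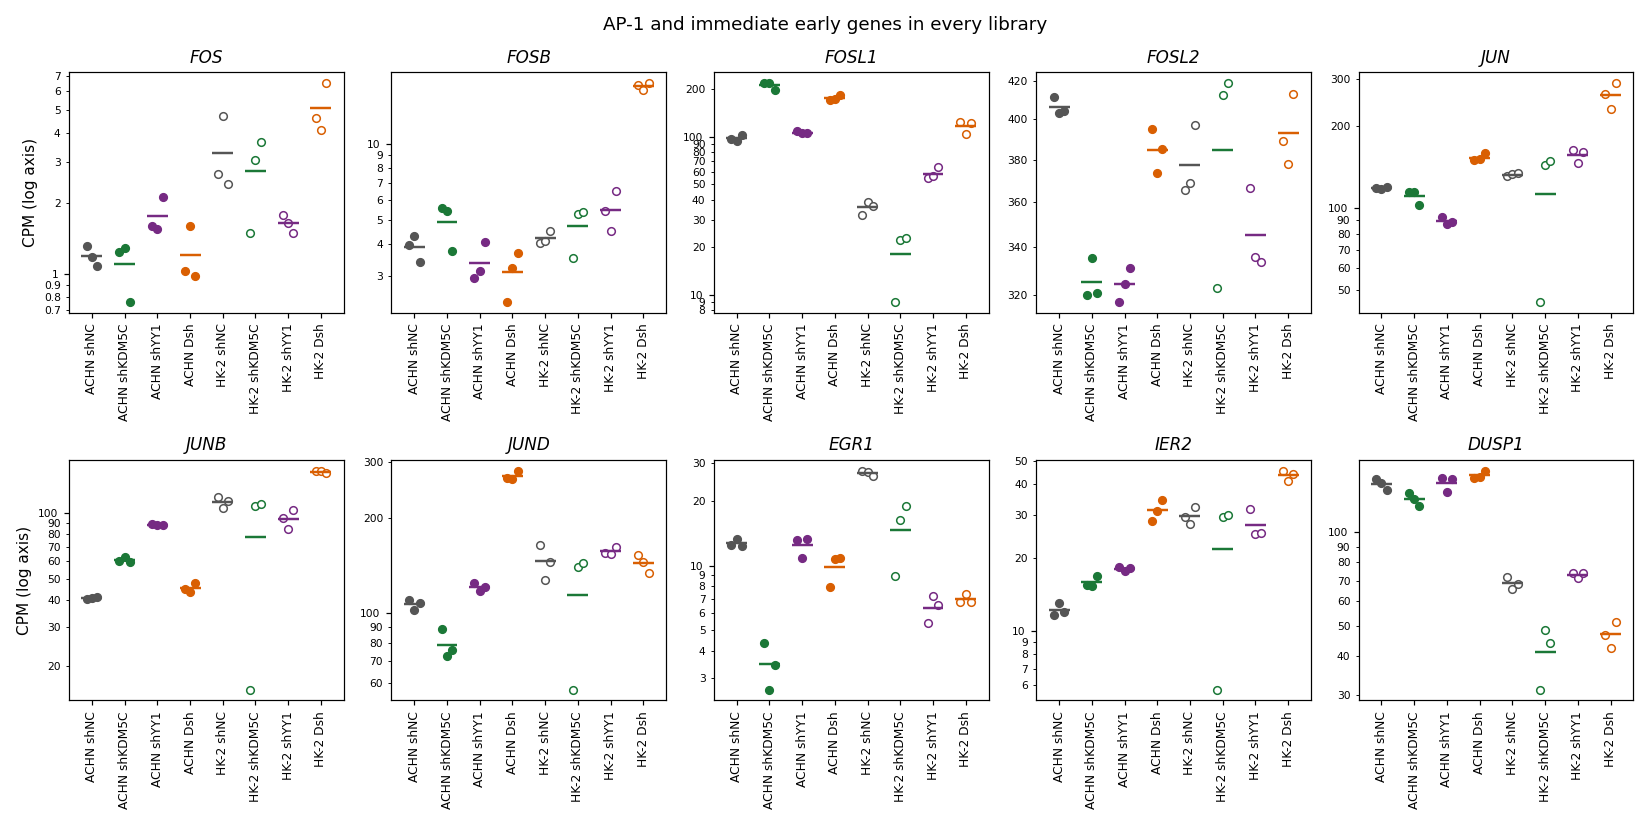
Level of each gene in CPM (log axis, a separate range for each gene) in the 24 libraries, by group, with ACHN filled and HK-2 open; each point is 1 library and each bar the mean of 3. JUND stands high in ACHN Dsh, FOSB in HK-2 Dsh and EGR1 in HK-2 shNC, and the low open point of HK-2 shKDM5C is its first replicate.

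The control lines themselves differed in most of these genes. Tests were edgeR quasi-likelihood tests with p-values adjusted by the Benjamini-Hochberg method across every gene in the fit, and a call needs an adjusted p under 0.05. Between ACHN shNC and HK-2 shNC, 3 members were higher and 6 lower in ACHN, beside 38.6% of all genes tested called higher and 38% lower, so a high share of calls is the rule in this comparison. FOSL1 was at 96.8, 93.6 and 103 CPM in ACHN against 32.3, 38.5 and 36.7 CPM in HK-2 (log2 fold change 1.44 ± 0.06 SE). JUNB was at 40.4, 40.9 and 41.1 CPM against 118, 105 and 113 CPM (log2 fold change -1.47 ± 0.05). DUSP1 stood at 137 to 148 CPM against 65.7 to 71.7 CPM (log2 fold change 1.05 ± 0.05). None of these 3 pairs of groups overlapped. FOS (-1.45 ± 0.28), EGR1 (-1.10 ± 0.09), IER2 (-1.30 ± 0.09) and JUN (-0.17 ± 0.04) were also lower in ACHN. FOSB did not pass the test (-0.13 ± 0.18, adjusted p = 0.523). FOSL2 was higher by 0.10 ± 0.03, a call that was lost with total counts as the scale (0.04, adjusted p = 0.27) and without HK-2 shNC replicate 1 (adjusted p = 0.0773) or 2 (adjusted p = 0.0535). JUND was lower in ACHN by the fit (-0.46 ± 0.06) but higher once each library's trend on GC content and gene length was removed (0.15, adjusted p = 0.00502). The GC and length correction was chosen after seeing the data. The exons of JUND are 69.7% GC, the highest of the 10 genes.

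KDM5C knockdown in ACHN raised FOSL1, JUNB and IER2 and lowered EGR1, JUND, FOSL2, DUSP1 and JUN, with FOS and FOSB not passing the test. That is 3 higher and 5 lower of 10, beside 28.9% of all genes higher and 27.7% lower. The members' median log2 fold change was -0.13, against -0.00696 over all genes. FOSL1 moved up most and EGR1 moved down most. Neither direction changed in any alternative run.

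YY1 knockdown in ACHN raised JUNB, IER2, JUND and FOSL1 and lowered JUN and FOSL2. The count was 4 higher and 2 lower, beside 24.2% and 24.5% of all genes, and the median of the members was 0.04 against -0.00738 over all genes. FOS (0.54 ± 0.28), FOSB (-0.23 ± 0.18), EGR1 (-0.05 ± 0.10) and DUSP1 (-0.01 ± 0.04) did not pass the test, at adjusted p-values of 0.109, 0.306, 0.683 and 0.809.

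Double knockdown in ACHN raised IER2, JUND, FOSL1, JUN and JUNB and lowered EGR1. The count was 5 higher and 1 lower, beside 30.7% and 32% of all genes, and the members' median was 0.13 against -0.00573 over all genes. These comparisons share the shNC libraries, and so their results are not independent of each other.

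In HK-2 the KDM5C knockdown gave no call among the 10 genes with all libraries, beside 0.668% of all genes higher and 0.656% lower. At an unadjusted p under 0.05 there were 3 members, beside 15.3% of all genes, and DESeq2 called 2, beside 4.99% of all genes in either direction. The fit of all 4 groups called 3, beside 7.84%, and GC and length correction gave 3, beside 6.16%. Without replicate 1, which was the lowest of its group in all 10 genes, 2 members were higher (FOSL2 and JUN) and 3 lower (FOSL1, EGR1 and DUSP1), beside 11.5% and 10.9% of all genes. This left 2 libraries in the group, and the fit takes the spread from both groups.

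YY1 knockdown in HK-2 raised FOSL1 and JUN and lowered EGR1, FOS, JUNB and FOSL2. That is 2 higher and 4 lower, beside 14.3% and 14.7% of all genes, with a median of -0.02 against 0.00506 over all genes. Double knockdown in HK-2 raised FOSB, FOSL1, JUN, FOS, IER2 and JUNB and lowered EGR1 and DUSP1. That is 6 higher and 2 lower, beside 25.5% and 24.3% of all genes, with a median of 0.51 against -0.00265 over all genes. With all 4 HK-2 groups in one fit, which brings in the library that stood apart, 1 member was called in shYY1 (EGR1), beside 5.42% of all genes in either direction, and 5 in Dsh, beside 22.9%. The Dsh calls lost in that fit were those of FOS, JUNB and IER2.

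**Figure D2:**
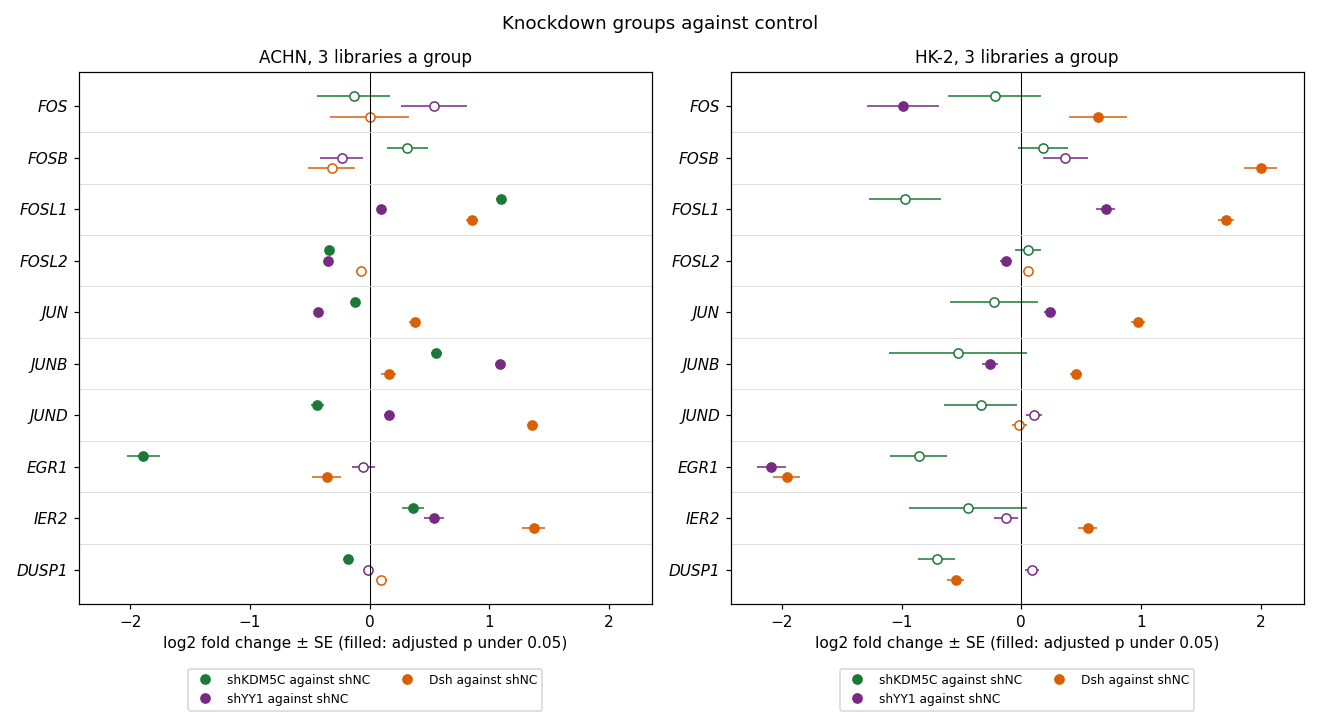
Log2 fold change of each gene against shNC of the same line, with its standard error, for shKDM5C, shYY1 and Dsh (3 libraries a group); filled points have an adjusted p under 0.05 by edgeR. In ACHN, JUND and IER2 lie furthest right in Dsh and EGR1 furthest left in shKDM5C, whereas in HK-2 FOSB and FOSL1 lie furthest right in Dsh and EGR1 furthest left in shYY1 and Dsh.

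Among the Fos genes, FOSL1 was called against shNC in every comparison but HK-2 shKDM5C with all libraries. In ACHN it stood at 96.8, 93.6 and 103 CPM in shNC, at 219, 218 and 198.5 CPM in shKDM5C, at 108, 106 and 105 CPM in shYY1 and at 172, 173 and 183 CPM in Dsh. The shKDM5C and Dsh libraries lay above all others, and they differed from shNC by 1.10 ± 0.04 (adjusted p = 2.21e-17) and 0.85 ± 0.05 (adjusted p = 3.35e-11) on the log2 scale. The shYY1 libraries lay just above the shNC libraries, and that call (0.10 ± 0.04, adjusted p = 0.0369) was lost under DESeq2, total counts or GC and length correction and without shNC replicate 1 or 2 or shYY1 replicate 1 or 2, with adjusted p from 0.0597 to 0.246. In HK-2 FOSL1 was at 32.3, 38.5 and 36.7 CPM in shNC, at 9.06, 22.2 and 22.9 CPM in shKDM5C, at 54.9, 56.6 and 64.3 CPM in shYY1 and at 124, 104.5 and 123 CPM in Dsh. None of the 4 groups overlapped another. FOSL1 rose by 0.71 ± 0.08 in shYY1 (adjusted p = 4.59e-07) and by 1.71 ± 0.07 in Dsh (adjusted p = 7.78e-19). The shYY1 call was lost with all 4 HK-2 groups in the fit (adjusted p = 0.101). In shKDM5C the value was -0.97 ± 0.30 with all libraries (adjusted p = 0.214) and -0.68 ± 0.09 without replicate 1 (adjusted p = 6.61e-06).

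FOSB, a Fos protein that is normally transient after stimulation, was low everywhere except in HK-2 Dsh. It was at 4.05, 4.14 and 4.53 CPM in HK-2 shNC, 3.52, 5.26 and 5.35 CPM in shKDM5C, 5.41, 4.53 and 6.53 CPM in shYY1 and 17.1, 16.4 and 17.5 CPM in Dsh. The Dsh libraries, with 279 to 308 counts each, lay far above the other groups, a rise of 2.00 ± 0.14 over shNC (adjusted p = 2.75e-13), while shYY1 did not pass the test (0.37 ± 0.19, adjusted p = 0.161). In ACHN its libraries ranged from 2.37 to 5.58 CPM over the 4 groups, and no knockdown group passed the test against shNC (log2 fold changes 0.31 ± 0.17, -0.23 ± 0.18 and -0.32 ± 0.20 in shKDM5C, shYY1 and Dsh). The gene body of FOSB overlaps that of ERCC1 on the other strand, with no exon base in common.

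FOS itself stayed between 0.76 and 2.13 CPM in ACHN, and no ACHN group differed from shNC by the test. In HK-2 it was at 2.68, 4.69 and 2.42 CPM in shNC, 1.5, 3.07 and 3.66 CPM in shKDM5C, 1.78, 1.65 and 1.5 CPM in shYY1 and 4.60, 4.11 and 6.52 CPM in Dsh. All shYY1 libraries lay below all shNC libraries, while shNC replicate 2 lay within the range of Dsh. The fall in shYY1 (-0.99 ± 0.30, adjusted p = 0.0157) was not called without shNC replicate 2 (-0.64, adjusted p = 0.171) or shYY1 replicate 3 (adjusted p = 0.0576). The rise in Dsh (0.64 ± 0.24, adjusted p = 0.0297) was not called under DESeq2 (adjusted p = 0.0547) or without shNC replicate 1 or 3 or Dsh replicate 3 (adjusted p from 0.119 to 0.205). With all 4 HK-2 groups in the fit, neither the fall nor the rise was called (adjusted p = 0.133 and 0.183).

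FOSL2, like FOSL1 a Fos protein without the strong activation domain, ranged from 317 to 411 CPM in ACHN and from 323 to 419 CPM in HK-2. In ACHN it was at 411, 403 and 404 CPM in shNC, 320, 335 and 321 CPM in shKDM5C, 317, 325 and 331 CPM in shYY1 and 395, 373.5 and 385 CPM in Dsh. The single knockdowns lay below the controls without overlap, by -0.34 ± 0.03 and -0.35 ± 0.03, and Dsh was not called (-0.07 ± 0.04, adjusted p = 0.137). In HK-2 the change in shYY1 was -0.13 ± 0.05 (adjusted p = 0.0483), and it was lost with GC and length correction and without any of shNC replicates 1, 2 and 3 or shYY1 replicates 2 and 3 (adjusted p from 0.0617 to 0.259). The call was also lost with all 4 HK-2 groups in the fit (adjusted p = 0.494). Without replicate 1, FOSL2 was higher in HK-2 shKDM5C by 0.13 ± 0.04 (adjusted p = 0.0235).

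Among the Jun genes JUND, which most cells express constitutively, was called in every ACHN knockdown and in none of HK-2. In ACHN it was at 109.5, 102 and 107.5 CPM in shNC, 88.8, 72.8 and 76.0 CPM in shKDM5C, 124, 117 and 120.4 CPM in shYY1 and 267, 266 and 282 CPM in Dsh. The Dsh libraries lay far above every other ACHN library, with a log2 fold change over shNC of 1.36 ± 0.05 (adjusted p = 1.8e-14), and 1.00 after GC and length correction. The fall in shKDM5C (-0.44 ± 0.05) held after the same correction (-0.25, adjusted p = 4e-05), whereas the rise in shYY1 (0.16 ± 0.04) did not (-0.06, adjusted p = 0.165). In HK-2 JUND was at 164, 127 and 145 CPM in shNC, 155, 154 and 162 CPM in shYY1 and 152, 145 and 134 CPM in Dsh. These groups overlapped, and neither shYY1 (0.11 ± 0.07, adjusted p = 0.255, though 0.18 with adjusted p = 0.0124 after GC and length correction) nor Dsh (-0.02 ± 0.06, adjusted p = 0.85) passed the test. The shKDM5C libraries were at 57.1, 140 and 144 CPM, so that the value of -0.34 ± 0.30 with all libraries became -0.04 ± 0.07 without replicate 1.

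JUNB, an AP-1 subunit that can oppose JUN, rose in each ACHN single knockdown and by a small step in Dsh. It was at 40.4, 40.9 and 41.1 CPM in shNC, 59.9, 62.9 and 59.4 CPM in shKDM5C, 89.0, 87.4 and 88.2 CPM in shYY1 and 44.9, 43.5 and 47.7 CPM in Dsh. No 2 of these groups overlapped, and the order ran from shNC through Dsh and shKDM5C to shYY1. The log2 fold changes were 0.56 ± 0.05 (adjusted p = 4.53e-10), 1.09 ± 0.05 (adjusted p = 2.29e-20) and 0.16 ± 0.06 (adjusted p = 0.0295) for shKDM5C, shYY1 and Dsh. The last was not called without the filter on low counts, or without shNC replicate 1, 2 or 3 or Dsh replicate 3 (adjusted p from 0.0733 to 0.11). In HK-2 JUNB was at 118, 105 and 113 CPM in shNC, 94.7, 84.1 and 103 CPM in shYY1 and 155, 155 and 151 CPM in Dsh. The shYY1 libraries lay below shNC (-0.26 ± 0.07, adjusted p = 0.00421) and the Dsh libraries above (0.46 ± 0.05, adjusted p = 7.16e-09). Neither was called with all 4 HK-2 groups in the fit (adjusted p = 0.831 and 0.518). In shKDM5C JUNB stood at 15.7 CPM in replicate 1 and 108 and 110 CPM in the others, and it was not called with that library (-0.53 ± 0.58) or without it (-0.05 ± 0.06). JUNB shares 259 exon bases with HOOK2 on the other strand, and the counting took no account of strand.

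JUN, the AP-1 subunit activated by JNK, was lower in the ACHN single knockdowns and higher in Dsh. It was at 119, 117 and 119.5 CPM in shNC, 114.5, 114 and 103 CPM in shKDM5C, 92.6, 87.0 and 88.7 CPM in shYY1 and 149.8, 151 and 159 CPM in Dsh. The groups did not overlap: shYY1 lay lowest (-0.43 ± 0.04, adjusted p = 8.24e-12) and Dsh highest (0.38 ± 0.05, adjusted p = 7.22e-07). The small fall in shKDM5C (-0.12 ± 0.04, adjusted p = 0.0156) was lost without the filter on low counts (adjusted p = 0.0509), without shNC replicate 3 (adjusted p = 0.0522) and without shKDM5C replicate 3 (adjusted p = 0.145). In HK-2 JUN was at 131, 133 and 134 CPM in shNC, 45.1, 144 and 149 CPM in shKDM5C, 164, 146 and 161 CPM in shYY1 and 262, 232 and 289 CPM in Dsh. It rose by 0.24 ± 0.05 in shYY1 (adjusted p = 0.00136) and by 0.98 ± 0.06 in Dsh (adjusted p = 2.45e-15), with no overlap between the 3 groups. The shYY1 call was lost with all 4 HK-2 groups in the fit (adjusted p = 0.747). In shKDM5C the sign turned with replicate 1, from -0.23 ± 0.37 with it to 0.13 ± 0.05 without it (adjusted p = 0.0498).

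EGR1, a zinc finger factor induced through the CArG boxes shown above, fell most in shKDM5C in ACHN and in shYY1 and Dsh in HK-2. In ACHN it was at 12.5, 13.4 and 12.3 CPM in shNC, 4.33, 2.64 and 3.43 CPM in shKDM5C, 13.1, 10.9 and 13.4 CPM in shYY1 and 7.98, 10.7 and 10.8 CPM in Dsh. The shKDM5C libraries lay furthest from the controls, with 47 to 80 counts against 228 to 248, a fall of 1.89 on the log2 scale (SE 0.14, adjusted p = 1.47e-11). The Dsh libraries lay below every shNC library, but the call (-0.36 ± 0.12, adjusted p = 0.0149) was lost without shNC replicate 2 (adjusted p = 0.0616) or Dsh replicate 1 (adjusted p = 0.0913). In HK-2 EGR1 was at 27.8, 27.4 and 26.1 CPM in shNC, 8.93, 16.3 and 19.1 CPM in shKDM5C, 5.41, 7.18 and 6.53 CPM in shYY1 and 6.78, 7.34 and 6.75 CPM in Dsh. All knockdown libraries lay below all controls, with -2.09 ± 0.12 in shYY1 (adjusted p = 1.96e-11) and -1.96 ± 0.11 in Dsh (adjusted p = 2.28e-15). The shKDM5C value was -0.86 ± 0.24 with all libraries (adjusted p = 0.177) and -0.63 ± 0.10 without replicate 1 (adjusted p = 6.55e-05).

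IER2, a nuclear immediate early protein whose window held the other YY1 motif, rose in every ACHN knockdown. It was at 11.6, 13.1 and 11.96 CPM in shNC, 15.4, 15.3 and 16.9 CPM in shKDM5C, 18.3, 17.6 and 18.1 CPM in shYY1 and 28.2, 31.1 and 34.5 CPM in Dsh. No groups overlapped, and the log2 fold changes were 0.36 ± 0.09, 0.54 ± 0.08 and 1.37 ± 0.09, with adjusted p-values of 0.00139, 1.99e-06 and 3.06e-10. In HK-2 it was at 29.3, 27.5 and 32.4 CPM in shNC, 5.74, 29.4 and 30.1 CPM in shKDM5C, 31.6, 25.0 and 25.3 CPM in shYY1 and 45.6, 41.5 and 44.3 CPM in Dsh. Only Dsh stood clear of the controls (0.56 ± 0.08, adjusted p = 5.64e-07, but 0.337 with all 4 HK-2 groups in the fit). The shYY1 libraries overlapped them (-0.13 ± 0.10), and shKDM5C, without replicate 1, was at -0.01 ± 0.09. IER2 shares 946 exon bases with an unnamed gene on the other strand that has 0 counts.

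DUSP1 changed little in ACHN, where shKDM5C was lower by a small step (134, 128 and 121 CPM against 148, 145 and 137 CPM, log2 fold change -0.18 ± 0.04, adjusted p = 0.000413). ACHN shYY1 and Dsh were not called (-0.01 ± 0.04 and 0.10 ± 0.05). In HK-2 it was at 71.7, 65.7 and 68.4 CPM in shNC, 31.2, 48.5 and 44.2 CPM in shKDM5C, 74.1, 71.4 and 73.9 CPM in shYY1 and 46.8, 42.4 and 51.7 CPM in Dsh. All HK-2 libraries with the KDM5C hairpin lay below all those without it. The fall in Dsh was called (-0.55 ± 0.07, adjusted p = 7.39e-08). In the edgeR fit of shKDM5C and shNC, without GC and length correction, DUSP1 was called lower without replicate 1 (-0.58 ± 0.07, adjusted p = 8.84e-07). It was not called in that fit with all libraries (-0.71 ± 0.16, adjusted p = 0.0961).

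**Figure D3:**
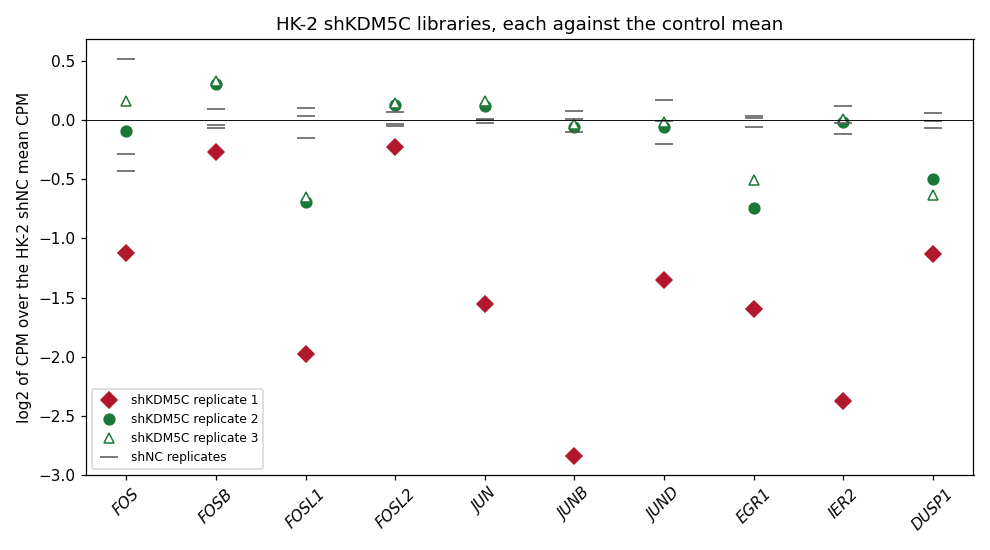
Level of each gene in the 3 HK-2 shKDM5C libraries, as the log2 of its CPM over the mean CPM of the 3 HK-2 shNC libraries (short bars: the shNC libraries themselves). Replicate 1 lies below replicates 2 and 3 in every gene, at -2.84 for JUNB and -2.37 for IER2, while replicates 2 and 3 lie between -0.74 and 0.34.

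Double knockdown was also compared with each single knockdown. Against shKDM5C in ACHN, 6 members were higher and 3 lower, beside 31.6% and 30.9% of all genes. JUND rose by 1.80 ± 0.06, EGR1 by 1.53 ± 0.18 and IER2 by 1.01 ± 0.09, while JUNB (-0.40 ± 0.06), FOSL1 (-0.24 ± 0.05) and FOSB (-0.63 ± 0.21) were lower. The FOSL1 call was lost after GC and length correction (-0.07, adjusted p = 0.157), and that of FOSB without shKDM5C replicate 1 (adjusted p = 0.065). Against shYY1 in ACHN, 5 were higher and 2 lower, beside 32% and 32.7% of all genes. JUND (1.18 ± 0.05), IER2 (0.81 ± 0.08), JUN (0.79 ± 0.05) and FOSL1 (0.74 ± 0.05) rose and JUNB fell (-0.95 ± 0.05). The lower EGR1 (-0.33 ± 0.13, adjusted p = 0.0359) was lost with total counts, GC and length correction, and without shYY1 replicate 1 or 3 or Dsh replicate 1 (adjusted p from 0.0682 to 0.171).

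In HK-2, Dsh against shYY1 gave 7 higher and 1 lower, beside 24.8% and 22.9% of all genes. FOS (1.63 ± 0.26), FOSB (1.63 ± 0.14), FOSL1 (1.00 ± 0.07), JUN (0.74 ± 0.07), JUNB (0.72 ± 0.06) and IER2 (0.69 ± 0.09) rose, FOSL2 rose by 0.19 ± 0.05 (not called after GC and length correction, adjusted p = 0.0713), and DUSP1 fell (-0.64 ± 0.07). In the fit of all 4 groups 4 of these were called, beside 22% of all genes in either direction. Dsh against shKDM5C gave 2 higher (FOSL1 and FOSB) and 1 lower (EGR1), beside 6.26% and 5.59% of all genes, and the EGR1 call (-1.11 ± 0.26, adjusted p = 0.035) was lost without shKDM5C replicate 2 or 3 or any 1 Dsh replicate (adjusted p from 0.0868 to 0.155). Without shKDM5C replicate 1 it gave 5 higher (FOSL1, FOSB, JUN, IER2 and JUNB) and 1 lower (EGR1), beside 22.2% and 21%. With all libraries, 5 members were called without the filter on low counts, beside 7.67% of all genes in either direction, and 5 after GC and length correction, beside 27.7%. In the edgeR fit without shKDM5C replicate 1, FOSL1 was higher by 2.38 ± 0.08, FOSB by 1.68 ± 0.15 and JUN by 0.84 ± 0.07. EGR1 was lower there (-1.34 ± 0.14).

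The interaction, the amount by which the log2 change in Dsh exceeded the sum of the changes in shKDM5C and shYY1, took opposite signs in different members. The targeted genes themselves had an interaction in ACHN, -0.42 for KDM5C (adjusted p = 6.48e-06) and 0.28 for YY1 (adjusted p = 0.00125). In HK-2 with all libraries neither was called (-0.097 and 0.026, adjusted p = 0.843 and 0.926). The part of this in the interactions of the members was not tested. In ACHN 6 members had a positive interaction and 2 a negative one, beside 26.8% and 28.8% of all genes. It was 1.61 ± 0.08 for JUND, 1.55 ± 0.20 for EGR1, 0.90 ± 0.06 for JUN, 0.58 ± 0.05 for FOSL2, 0.44 ± 0.12 for IER2 and 0.27 ± 0.06 for DUSP1. JUNB stood alone at the other end at -1.51 ± 0.07 (adjusted p = 2e-15), and FOSL1 was at -0.37 ± 0.06, a call lost after GC and length correction (-0.13, adjusted p = 0.0727). EGR1 was low in shKDM5C and near the control level in shYY1, and in Dsh it lay between them.

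In HK-2 3 members had a positive interaction and none a negative one with all libraries, beside 5.21% and 4.4% of all genes. There were 7 calls without the filter on low counts, beside 6.3% of all genes in either direction, and 7 after GC and length correction, beside 20.5%. FOSL1 was at 1.96 ± 0.32, FOS at 1.84 ± 0.47 and FOSB at 1.44 ± 0.24. The FOS call (adjusted p = 0.028) was lost without shNC replicate 2, any shYY1 replicate or Dsh replicate 1 or 3 (adjusted p from 0.0552 to 0.0796). Without shKDM5C replicate 1, 7 were positive and none negative, beside 15% and 13.7% of all genes. They were FOSL1 (1.69 ± 0.12), FOS (1.6 ± 0.39), FOSB (1.32 ± 0.23), JUNB (0.78 ± 0.09), EGR1 (0.76 ± 0.18), IER2 (0.70 ± 0.13) and JUN (0.61 ± 0.09). FOSL2, JUND and DUSP1 did not pass the test in that fit (0.07 ± 0.07, -0.07 ± 0.10 and -0.06 ± 0.10).

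**Figure D4:**
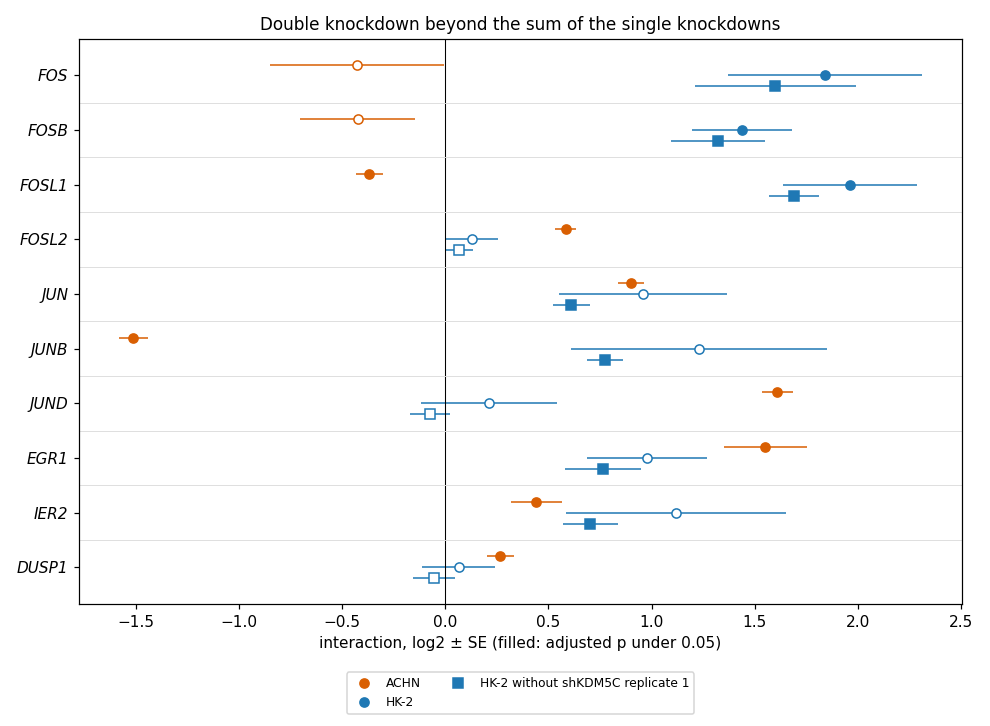
Interaction of the knockdowns on the log2 scale with its standard error, for ACHN, for HK-2, and for HK-2 without the first shKDM5C replicate; filled points have an adjusted p under 0.05 by edgeR. JUNB lies at -1.51 in ACHN but at 0.78 in HK-2 without that library, and FOSL1 at -0.37 and 1.69.

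The knockdown effects were compared directly between the lines. The targeted genes themselves fell less in ACHN than in HK-2. With all libraries, KDM5C was at -0.73 and -1.74 in shKDM5C, and YY1 at -0.88 and -1.7 in shYY1. In Dsh KDM5C was at -0.80 and -1.49, and YY1 at -0.51 and -1.49. The part of this in the differences below was not tested. For shYY1, 4 members had a higher change in ACHN than in HK-2 and 3 a lower one, beside 16.6% and 16.5% of all genes. EGR1 differed by 2.05 ± 0.16, FOS by 1.54 ± 0.41, JUNB by 1.36 ± 0.08 and IER2 by 0.68 ± 0.13, and on the other side JUN by -0.65 ± 0.06, FOSL1 by -0.60 ± 0.09 and FOSL2 by -0.20 ± 0.06. JUNB rose in ACHN and fell in HK-2 and JUN did the reverse, each called in both lines. For Dsh, 4 members had a higher change in ACHN and 4 a lower one, beside 23.3% and 22.7% of all genes. EGR1 (1.62 ± 0.17), JUND (1.40 ± 0.09), IER2 (0.83 ± 0.12) and DUSP1 (0.67 ± 0.08) were on the ACHN side, and FOSB (-2.29 ± 0.23), FOSL1 (-0.84 ± 0.09), JUN (-0.58 ± 0.08) and JUNB (-0.27 ± 0.08) on the HK-2 side. All 8 of these calls held in every alternative run.

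For shKDM5C, 1 member had a higher change in ACHN (FOSL1, 2.07 ± 0.32) and 1 a lower one (FOSL2, -0.38 ± 0.11) with all libraries, beside 5.74% and 6.18% of all genes. The FOSL2 call (adjusted p = 0.0473) was lost under 3 other settings and in 11 of the 12 fits that left out 1 library, the exception being the fit without HK-2 shKDM5C replicate 1. With all libraries, 4 members were called by DESeq2, beside 17.3% of all genes in either direction, 4 after GC and length correction (21.8%), 1 with total counts (11.7%) and 1 with the replicate block (5.33%). Without that replicate, 4 were higher (FOSL1, JUNB, DUSP1 and IER2) and 4 lower (EGR1, FOSL2, JUND and JUN), beside 18.6% and 15.4% of all genes. FOSL1 then differed by 1.78 ± 0.09, from a rise in ACHN to a fall in HK-2, and EGR1 by -1.25 ± 0.18, with falls in both.

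**Figure D5:**
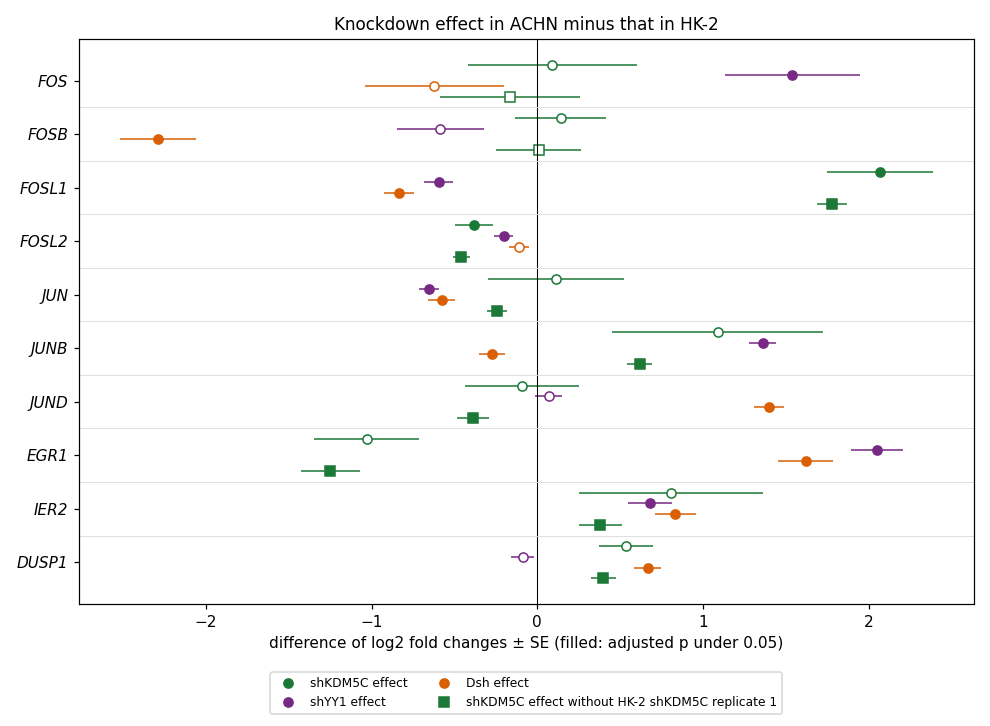
Log2 fold change against shNC in ACHN minus that in HK-2, with its standard error, for shKDM5C, shYY1 and Dsh, and for shKDM5C without its first HK-2 replicate (squares); filled points have an adjusted p under 0.05 by edgeR. EGR1 lies at 2.05 for shYY1 and -1.25 for shKDM5C without that library, and FOSB at -2.29 for Dsh.

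The other genes of the pathway were read from lists that, like the members, were drawn up with earlier results of these data known. Of 18 ERK feedback genes, which encode dual-specificity phosphatases, Sprouty and Spred inhibitors and ERK-driven factors, 15 of 16 tested rose and 1 fell in ACHN Dsh (median log2 fold change 1.10), and 16 of 17 tested rose and 1 fell in HK-2 Dsh (median 1.01). Over all genes, 30.7% rose and 32% fell in ACHN Dsh and 25.5% and 24.3% in HK-2 Dsh, with medians of -0.00573 and -0.00265. In ACHN Dsh, SPRED3 went from 3.46 to 17.2 CPM (2.32 ± 0.13), the ERK-driven factor ETV5 from 7.81 to 29.8 CPM (1.93 ± 0.09), SPRY2 from 7.38 to 18.2 CPM (1.31 ± 0.10) and the ERK phosphatase DUSP5 from 13.9 to 31.4 CPM (1.18 ± 0.09). In HK-2 Dsh, PHLDA1 went from 139 to 538 CPM (1.95 ± 0.05), SPRED3 from 3.41 to 12.3 CPM (1.85 ± 0.17), SPRY2 from 15.7 to 49.96 CPM (1.67 ± 0.09) and DUSP10 from 34.2 to 93.4 CPM (1.45 ± 0.06). The single knockdowns were more mixed, with 9 up and 5 down of 15 in ACHN shKDM5C (28.9% and 27.7% of all genes), 6 and 4 of 16 in ACHN shYY1 (24.2% and 24.5%), and 5 and 2 of 17 in HK-2 shYY1 (14.3% and 14.7%). In HK-2 shKDM5C 1 rose, DUSP6 (0.97 ± 0.13), beside 0.668% of all genes, and without replicate 1 there were 5 up and 1 down, beside 11.5% and 10.9%.

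The kinases and transcription factors that act on the Fos and Jun genes showed no common direction. Of 21 tested in ACHN, 8 rose and 8 fell in shKDM5C, 9 and 7 in shYY1, and 6 and 8 in Dsh, and of 20 tested in HK-2, 5 rose and 5 fell in shYY1 and 8 and 5 in Dsh. Over all genes 28.9% rose and 27.7% fell in ACHN shKDM5C, 24.2% and 24.5% in ACHN shYY1, 30.7% and 32% in ACHN Dsh, 14.3% and 14.7% in HK-2 shYY1 and 25.5% and 24.3% in HK-2 Dsh. In both lines Dsh raised the ternary complex factor ELK3 (0.71 ± 0.06 in ACHN, 1.07 ± 0.06 in HK-2) and the stress kinase gene RPS6KA5 (1.61 ± 0.11 and 0.91 ± 0.09).

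Genes that AP-1 is known to drive were listed as well. Of 20, 10 of 14 tested rose and 3 fell in ACHN Dsh (median 0.63), and 13 of 16 rose and none fell in HK-2 Dsh (median 1.14), beside 30.7% and 32% of all genes in ACHN and 25.5% and 24.3% in HK-2. In HK-2 Dsh the collagenase MMP1 went from 7.16 to 168 CPM (4.54 ± 0.08), the urokinase receptor PLAUR from 12.02 to 49.5 CPM (2.04 ± 0.09), urokinase PLAU from 252 to 879 CPM (1.80 ± 0.05) and IL11 from 9.75 to 32.8 CPM (1.75 ± 0.12). In ACHN Dsh the chemokine CXCL8 went from 4.71 to 28.9 CPM (2.62 ± 0.12), IL6 from 13.8 to 61.8 CPM (2.17 ± 0.08), PLAU from 138 to 366 CPM (1.41 ± 0.05) and the adhesion receptor CD44 from 259 to 675 CPM (1.39 ± 0.04), while VEGFA fell (-0.61 ± 0.05). These are also targets of other factors. In the single knockdowns the counts were 10 up and 4 down of 14 in ACHN shKDM5C (28.9% and 27.7% of all genes), 9 and 3 of 14 in ACHN shYY1 (24.2% and 24.5%), and 9 and 2 of 16 in HK-2 shYY1 (14.3% and 14.7%). In HK-2 shKDM5C 1 fell, CCND1 (-0.99 ± 0.13), beside 0.656% of all genes, and without replicate 1 there were 3 up and 8 down, beside 11.5% and 10.9%.

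Of 35 further immediate early genes, 20 of 30 tested rose and 4 fell in ACHN Dsh, and 15 rose and 8 fell of 30 in HK-2 Dsh, beside 30.7% and 32% of all genes in ACHN and 25.5% and 24.3% in HK-2. In ACHN Dsh the antiproliferative gene BTG2 went from 40.7 to 227 CPM (2.49 ± 0.06), KLF2 from 2.90 to 14.5 CPM (2.32 ± 0.15) and PLK3 from 7.82 to 30.5 CPM (1.97 ± 0.09). In HK-2 Dsh the stress sensor GADD45A went from 18.1 to 76.6 CPM (2.08 ± 0.09), KLF4 from 5.86 to 19.9 CPM (1.76 ± 0.13) and IER3 from 59.7 to 180 CPM (1.59 ± 0.06), while RHOB (-1.20 ± 0.06) and HBEGF (-0.89 ± 0.10) fell. ACHN shKDM5C gave 14 up and 9 down (28.9% and 27.7% of all genes), led by SGK1 (1.66 ± 0.04) and RHOB (-1.08 ± 0.04). ACHN shYY1 gave 17 and 6 (24.2% and 24.5%), and HK-2 shYY1 3 and 9 (14.3% and 14.7%).

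The other leucine zipper proteins that can pair with Fos or Jun moved in both directions. In Dsh, 5 of 11 tested rose and 4 fell in ACHN, and 5 of 11 rose and 3 fell in HK-2, beside 30.7% and 32% of all genes in ACHN and 25.5% and 24.3% in HK-2. The small Maf genes MAFG (0.81 ± 0.05 and 1.03 ± 0.06) and MAFF (0.64 ± 0.11 and 1.25 ± 0.08) rose in both lines, and the stress-induced ATF3 fell in ACHN (-0.65 ± 0.08) and rose in HK-2 (0.77 ± 0.10). MAFK fell in ACHN shKDM5C (-1.08 ± 0.04) and Dsh (-0.91 ± 0.06), as did JDP2, an AP-1 repressor, in Dsh (-0.97 ± 0.08). The counts in the single knockdowns were 4 up and 2 down of 11 in ACHN shKDM5C (28.9% and 27.7% of all genes), 4 and 1 of 11 in ACHN shYY1 (24.2% and 24.5%), and 4 and 2 of 12 in HK-2 shYY1 (14.3% and 14.7%).

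A list of 12 heat shock genes, which cells raise under protein stress, was counted beside the immediate early genes. In ACHN shKDM5C 10 rose and 2 fell (28.9% and 27.7% of all genes), in shYY1 5 and 2 (24.2% and 24.5%), and in Dsh 6 and 3 (30.7% and 32%), with sums of 6055 to 6349 CPM in shNC and 5967 to 6191 CPM in Dsh. In HK-2 Dsh all 12 fell, beside 24.3% of all genes, with sums of 7764 to 7891 CPM in shNC and 4907 to 5170 CPM in Dsh, led by HSP90AA1 (-1.51 ± 0.04). HK-2 shYY1 gave 1 up and 6 down (14.3% and 14.7%). The kidney epithelial markers also moved: their sum was 3110 to 3171 CPM in ACHN shNC and 2160 to 2364 CPM in Dsh, and 3494 to 3605 CPM in HK-2 shNC and 2069 to 2157 CPM in Dsh, with 2 of 9 tested higher and 6 lower in ACHN Dsh and 2 of 9 higher and 7 lower in HK-2 Dsh, beside 30.7% and 32% of all genes in ACHN and 25.5% and 24.3% in HK-2. KRT8 fell in both lines (-1.0 ± 0.05 and -1.17 ± 0.04), and PAX8 (0.40 ± 0.04 and 0.27 ± 0.04) and CDH2 (0.44 ± 0.04 and 0.27 ± 0.05) rose in both. The part of these shifts in the results for the AP-1 genes was not tested.

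In HK-2 shKDM5C with all libraries, edgeR called no partner, kinase or factor, further immediate early or heat shock gene, beside 0.668% of all genes higher and 0.656% lower. At an unadjusted p under 0.05, where 15.3% of all genes stood, there were 2 of 11 partners, 3 of 20 kinases and factors, 5 of 30 further immediate early genes and 2 of 12 heat shock genes. DESeq2 called 2, 1, 2 and 0 of them, beside 4.99% of all genes. Without replicate 1, edgeR called 2 partners higher and 1 lower, 4 kinases and factors higher and none lower, 2 further immediate early genes higher and 8 lower, and 8 heat shock genes lower and none higher, beside 11.5% of all genes higher and 10.9% lower.

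The genes whose group means ran most like those of 4 members were found by the Pearson correlation of the 8 group means of log2 CPM, over 10010 genes (10011 for FOS) with a mean of at least 10 CPM. They were APH1A (0.990), TSPAN4 (0.983) and ARPC2 (0.981) for FOSL1, TDRKH (0.984), FBN1 (0.981) and LTBP4 (0.971) for JUN, ITPRIP (0.960) and SUN2 (0.945) for FOS, and ZNF252P (0.851), AGAP4 (0.839) and LRRC37A3 (0.816) for EGR1. The 8 means share 2 cell lines and their controls, so these values describe likeness of pattern and no more. Without the first HK-2 shKDM5C replicate the value for FBN1 and JUN was 0.815, and the others named ranged from 0.802 to 0.976.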

How the data were processed

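RNA-seq of 24 libraries was analysed, 12 from each of 2 cell lines. Per the labels, reads were aligned with HISAT2 (2.0.5), and the authors deposited raw counts per gene from featureCounts (1.5.0-p3 in the labels, 2.0.1 in the file headers) on GRCh38 with Ensembl release 84, paired-end and without a strand setting. The study itself tested pairs of groups with DESeq2.

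Here the counts were tested in R (4.3.3) with edgeR (4.0.16), using TMM scaling, filterByExpr, the quasi-likelihood F test and Benjamini-Hochberg adjustment over all genes tested, at a threshold of 0.05. Pairs of groups were fitted on their own libraries, and the interaction and the difference between lines in 1 model. CPM used TMM factors over all libraries. The 19466 genes without a symbol held 0.595% of counts, and GC content was available for 99.7% of genes. DESeq2 (1.42.0), RLE size factors, total counts, no filter, all 4 groups of a line in the fit, a replicate block, GC and length correction and leaving out each library were the alternatives. The scripts were tested on simulated data. Replicate numbers did not pair the libraries.

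The members and lists were chosen with earlier results of these data known. All members are named. Of the other lists, the text names called genes whose higher group averaged 10 CPM or more, up to 2 in each direction with the largest change for a single knockdown and up to 4 for Dsh, besides markers named to check the labels. A few genes that this rule would name are not reported here. Promoter sequences came from RefSeq.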

Additional observations from a re-analysis of the deposited data

Results flagged for a closer look

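Knockdown of the same target changed several of these genes differently in ACHN and HK-2. The test was of the difference itself, in edgeR with adjustment over all genes. The targeted genes fell less in ACHN than in HK-2, and the part of this in the differences was not tested. Values are the log2 fold change in ACHN minus that in HK-2. For YY1 knockdown, EGR1 (2.05), FOS (1.54), JUNB (1.36) and IER2 (0.68) had the higher change in ACHN, and JUN (-0.65), FOSL1 (-0.60) and FOSL2 (-0.20) the lower. For the double knockdown, EGR1 (1.62), JUND (1.40), IER2 (0.83) and DUSP1 (0.67) were on the ACHN side, and FOSB (-2.29), FOSL1 (-0.84), JUN (-0.58) and JUNB (-0.27) on the HK-2 side. For KDM5C knockdown, FOSL1 differed by 2.07 and FOSL2 by -0.38, with the HK-2 library that stood apart included, and the FOSL2 call was lost in 11 of the 12 fits that left out 1 library. Without that library FOSL1 (1.78), JUNB (0.62), DUSP1 (0.40) and IER2 (0.38) had the higher change in ACHN and EGR1 (-1.25), FOSL2 (-0.46), JUND (-0.39) and JUN (-0.24) the lower.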

How the results depend on the processing

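Over 1060 values under other settings, 972 kept their direction and their side of the threshold, 30 lost a call, 37 gained one and 21 changed sign. Over 1260 values with 1 library left out, the numbers were 1154, 50, 25 and 31. The cause was not tested. Under DESeq2, 2 members were called in HK-2 shKDM5C and 4 in the shKDM5C difference between lines (4.99% and 17.3% of all genes). These shares are in either direction, as are all below except those with 1 library left out. FOSL2 in HK-2 Dsh against shKDM5C was 0.00011 under DESeq2, against -2.63e-05 in edgeR. With RLE size factors that FOSL2 value was 0.000204. With total counts FOSL2 was -0.0226 in HK-2 shKDM5C and 0.0425 in HK-2 Dsh against shKDM5C, and 1 member was called in the shKDM5C difference (11.7%). Without the filter, FOS in ACHN Dsh was -0.00438, FOSL2 in HK-2 Dsh against shKDM5C was 0.0243, and 5 members were called there (7.67%) and 7 in the HK-2 interaction (6.3%). With all 4 groups in the fit, DUSP1 in ACHN shYY1 was 0.00755, and HK-2 gave 3 calls in shKDM5C (7.84%), 1 in shYY1 (5.42%), 5 in Dsh (22.9%) and 4 in Dsh against shYY1 (22%).

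After GC and length correction, 3 members were called in HK-2 shKDM5C (6.16%), 5 in HK-2 Dsh against shKDM5C (27.7%), 7 in the HK-2 interaction (20.5%) and 4 in the shKDM5C difference (21.8%). JUND then was -0.0609 in ACHN shYY1, 0.162 in HK-2 shKDM5C, -0.162 in HK-2 Dsh against shKDM5C, 0.153 between the controls, -0.332 in the HK-2 interaction and -0.204 in the shYY1 difference. DUSP1 was -0.114 in HK-2 Dsh against shKDM5C and -0.127 in the HK-2 interaction, and FOSL2 was -0.0341 in the latter. FOS (-0.089), FOSB (-0.0271) and JUN (-0.0906) changed sign in the shKDM5C difference.

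Same-numbered replicates were not correlated (r from -0.0538 to 0.0423 in ACHN and from -0.193 to 0.0774 in HK-2, none of 18 over 0.1 in either line). With the replicate block, FOS in ACHN Dsh was -0.00239, FOSL2 in HK-2 Dsh against shKDM5C was 0.00324 and 1 member was called in the shKDM5C difference (5.33%).

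With 1 library left out, the members called in either direction ranged from 0 to 5 in HK-2 shKDM5C and 2 to 6 in HK-2 Dsh against shKDM5C. They ranged from 2 to 7 in the HK-2 interaction and 1 to 8 in the shKDM5C difference. The share of all genes called higher in those fits ranged from 0% to 11.5%, 1.45% to 22.2%, 3.06% to 15% and 3.09% to 18.6%. The share called lower, to be added to it, ranged from 0% to 10.9%, 0.864% to 21%, 2.22% to 13.7% and 3.67% to 15.4%. Each share was highest without HK-2 shKDM5C replicate 1. In ACHN, FOS ranged from -0.259 to 0.0697 in shKDM5C, from -0.234 to 0.145 in Dsh and from -0.106 to 0.269 in Dsh against shKDM5C. EGR1 ranged from -0.102 to 0.0372 and DUSP1 from -0.0441 to 0.0324 in ACHN shYY1, and FOSB from -0.266 to 0.0562 in ACHN Dsh against shYY1. In HK-2 shKDM5C, FOS ranged from -0.458 to 0.131 and JUN from -0.46 to 0.131. JUND ranged from -0.106 to 0.0784 in HK-2 Dsh and FOSL2 from -0.0752 to 0.0444 in HK-2 Dsh against shKDM5C. In the HK-2 interaction JUND ranged from -0.0719 to 0.399 and DUSP1 from -0.0555 to 0.181. In the shKDM5C difference FOS ranged from -0.252 to 0.34, JUN from -0.243 to 0.359 and JUND from -0.387 to 0.108, and in the shYY1 difference JUND from -0.0259 to 0.159. FOS, at 14 to 38 counts per ACHN library, is limited by depth.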
